A study of Mus musculus with 192 samples.

Results

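The livers described here came from the mice that flew to the International Space Station, 5 Nrf2-KO mice (FL_KO) and 6 wild-type mice (FL_WT). The question was how liver RNA differed between Nrf2-KO and wild-type mice that had flown. They were chosen by their labels alone (liver, condition Flight, genotype Nrf2KO or WT) and make up 11 of the 192 samples of the series and 11 of its 24 livers. Flight mouse FL04, an Nrf2-KO animal, was left out as in the study, since it bled severely in the intestine during the return. The fit held 23 livers. The other 12 came from ground control mice, 6 Nrf2-KO (GC_KO) and 6 wild-type (GC_WT), housed in the same cage units at another site and in another season. The mice were C57BL/6 by the labels and C57BL/6J by the study's methods, male, labelled 12 weeks of age, individually housed, and either wild-type or carriers of the Nfe2l2 tm1Ymk allele, in which a reporter replaces the DNA-binding part of the gene in every cell of the body. Nrf2-KO mice with a vascular shunt in the liver had been screened out before launch, so these animals represent the allele without that defect. The study's methods give 12 weeks as the age at which the mice were ready for launch. The flight livers were taken later, after about a month on the station, landing, transport and behavioural tests. No label gives the hour of dissection.

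Nrf2, encoded by Nfe2l2, is a basic leucine zipper transcription factor that pairs with small Maf proteins on antioxidant response elements. Keap1 holds it for degradation in unstressed cells, and oxidants and electrophiles release it. In the liver it is best known for maintaining the enzymes that oxidise, conjugate and export foreign and toxic compounds, and those that supply glutathione and NADPH.

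RNA of genes for detoxication was lower in the FL_KO livers, and the same enzyme families were lower on the ground. Of 13433 genes tested, 307 fell in FL_KO against FL_WT (2.29%) and 183 rose (1.36%), called at an adjusted p under 0.05 in edgeR's quasi-likelihood test. An unadjusted p under 0.05 in that test was reached by 2323 of the 13433, the background for such counts below. The carboxylesterases Ces1b and Ces1g were 17.9-fold and 17.4-fold lower, the glutathione transferases Gsta2 and Gstm1 5.44-fold and 3.87-fold lower, and the glucuronosyltransferase Ugt2b5 3.08-fold lower. The genes that rose were fewer and more varied, led by Vcpkmt, a lysine methyltransferase, at 6.81-fold, among annotated genes at 5 TPM or more whose groups did not overlap. Among called genes, 111 were lower and 56 higher by more than 1 on the log2 scale, and the median over all genes tested was 0.01. The count of genes that rose fell to 92 with only flight livers in the fit, to 105 without a filter on low counts, and to 100 to 119 when FL05, FL06, FL09, FL11 or FL12 was left out. With limma on log2(TPM + 1), 154 genes fell and 186 rose, so 54.7% of calls were higher against 37.3% here.

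**Figure D1:**
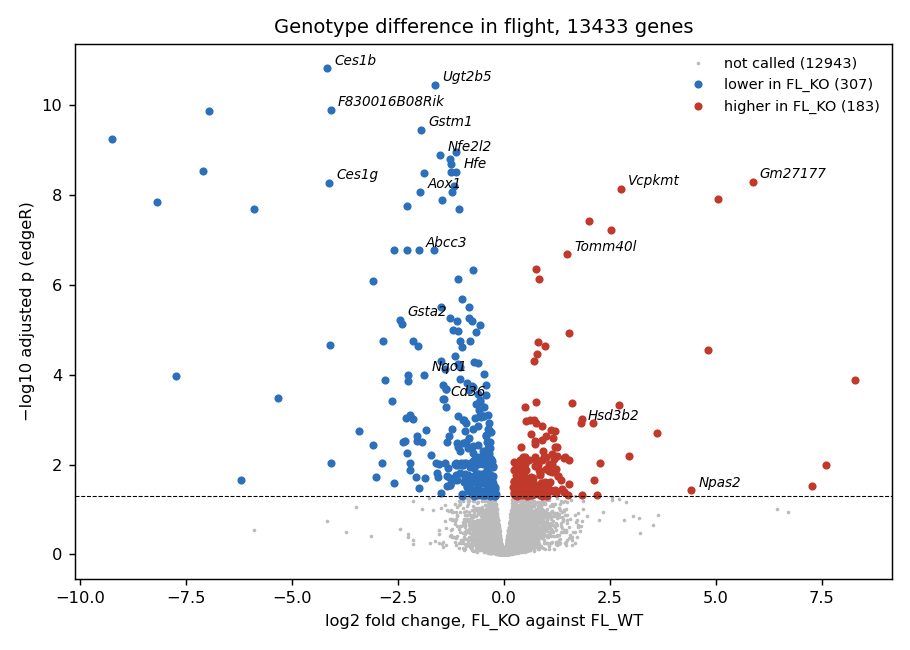
Each point is 1 of the 13433 genes tested, with the log2 fold change of FL_KO (n = 5) against FL_WT (n = 6) on the horizontal axis and -log10 of edgeR's adjusted p on the vertical axis, where the dashed line marks 0.05. The 307 genes that fell include Ces1b, Ugt2b5 and Gstm1 at the smallest p-values, while Vcpkmt and Gm27177 stand out among the 183 that rose.

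Nfe2l2 itself, on chromosome 2 from 75675513 to 75704641 (GRCm38), was measured at 19.6, 16.8, 23.5, 24.1 and 20.9 TPM, a level scaled for gene length and library size, in FL01, FL02, FL09, FL11 and FL12, the order used for FL_KO mice throughout. In FL_WT it ran from 41.8 through a median of 57.2 to 66.2 TPM. The groups did not overlap, and the log2 fold change was -1.50 ± 0.10 (SE, adjusted p = 1.26e-09 in edgeR). A gene-level value does not show which exons the remaining reads came from, so it marks the genotype without measuring functional protein. The difference on the ground was -1.48. Of 10 genes in the list of Nrf2 and its partners and regulators, Nfe2l2 was the only one called. Nfe2l1, a related factor, gave -0.20 (adjusted p = 0.518), and Sqstm1, an autophagy adaptor that binds Keap1, gave -0.11 (adjusted p = 0.489).

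Total counts per library, rounded to 100000, were 14900000 to 15300000 in FL_KO and 14900000 to 15200000 in FL_WT, so depth was close to equal between the groups. The summed TPM of 11 hepatocyte markers was 79023 to 98776 in FL_KO and 75499 to 95714 in FL_WT, with none of them at 0, as the liver label requires. Albumin gave a log2 fold change of 0.08 (adjusted p = 0.770). In whole liver, fewer cells of a type and less RNA per cell cannot be told apart. Summed markers of 2 other kinds were uneven. Lymphocyte and neutrophil markers reached 77.6 TPM in FL01 against a median of 12.96 over FL_KO, and 6.62 to 8.73 in FL_WT. Erythroid markers were 330 to 828 TPM in FL_KO, highest in FL01, and 234 to 399 in FL_WT. Counts are therefore also given without FL01 and FL11, a choice made after the values were seen, and with both left out 221 genes fell and 95 rose, 282 of the 490 called genes among them.

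Glutathione transferases join glutathione to electrophiles, and the mu class, a row of neighbouring genes on chromosome 3, held the largest share of called genes among the glutathione transferase lists. Of 7 mu class genes tested, 5 fell and 0 rose, with a median log2 fold change of -0.90 against 0.01 over all genes. Gstm1 (chromosome 3, 108012255 to 108017973) was at 408, 332, 360, 357 and 387 TPM in FL_KO, against 1178, 1242 and 1597 TPM as lowest, median and highest in FL_WT. The FL_KO mice lay within a narrow range, far under every FL_WT mouse, and the log2 fold change was -1.95 ± 0.12 (adjusted p = 3.55e-10 in edgeR). Gstm3 was at 2.76, 1.53, 2.91, 5.59 and 5.04 TPM in FL_KO and 11.4 to 25.7 in FL_WT, a log2 fold change of -2.40 ± 0.29. Gstm2 was 2.62-fold, Gstm6 1.77-fold and Gstm4 1.86-fold lower, and of these only the Gstm4 values overlapped between groups. The other members were not called, Gstm5 at 5.88 to 9.91 TPM in FL_KO and 3.95 to 7.25 in FL_WT (0.47, adjusted p = 0.0966, called higher only without FL07, 0.57) and Gstm7 at 23 to 39.1 and 22.8 to 35.2 TPM (0.06, -0.03 without FL12 and -0.05 with the clock gene level as a covariate). Without FL01 and FL11, 4 of the 7 fell, with Gstm4 no longer called. These genes are close in sequence, and RSEM divides reads that fit several of them, so the share of each is less certain than the sum.

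Among the other glutathione transferases, 7 of 15 fell and 0 rose (median -0.40). Gsta2, an alpha class enzyme on chromosome 9 (78331018 to 78355788), was at 14.2, 12.2, 7.89, 9.01 and 5.99 TPM in FL_KO and 32.4, 51.8 and 60.5 TPM as lowest, median and highest in FL_WT (log2 fold change -2.44 ± 0.29). Gsta1, named after its values were seen, had the lowest log2 fold change of the list (-6.2 ± 1.53, adjusted p = 0.0217 in edgeR), but it was at 0 TPM in mice of both groups, at 0.16 TPM in FL01 and 0 in the other 4 FL_KO mice, and at 8.67, 2.85 and 5.7 TPM in FL05, FL06 and FL07 and 0 in the other 3 FL_WT mice. Its call was lost without FL01, FL05, FL09, FL11 or FL12 (-7.54 to -5.47). Gsta4, which acts on lipid peroxidation products, was 2.21-fold lower. The abundant members moved less: Gstp1 from a median of 2094 to 1440 TPM, Gsta3 from 2250 to 1524 TPM, and Mgst1, the microsomal enzyme, from 5150 to 4140 TPM. Each of these was below every FL_WT mouse in all 5 FL_KO mice. Gstt1 of the theta class was not called (0.08, adjusted p = 0.762), and Gsto1 of the omega class was 1.32-fold lower. Across the genome 447 genes (3.33%) had FL_KO and FL_WT values without overlap in TPM, and 255 of the 490 called genes were among them.

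**Figure D2:**
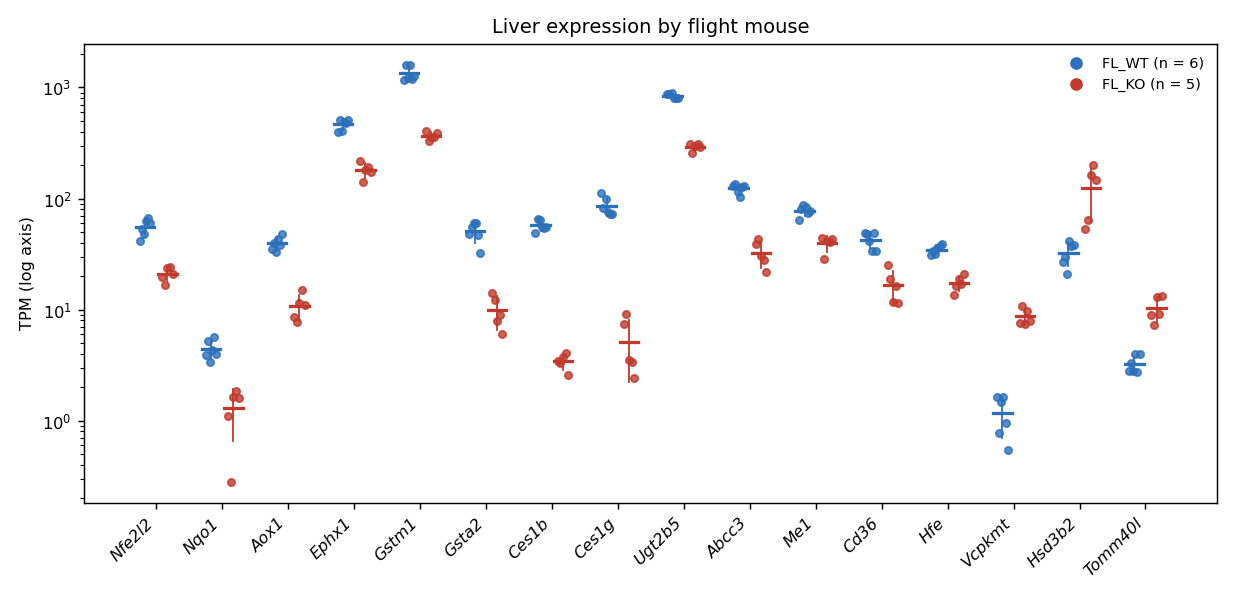
Each point is the TPM of 1 flight liver on a log axis, for 16 genes, with FL_WT (n = 6) beside FL_KO (n = 5); horizontal bars are means and vertical lines are SD. In all 16 genes the groups are separate, 13 lower and 3 (Vcpkmt, Hsd3b2 and Tomm40l) higher in FL_KO.

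Oxidoreductases and hydrolases prepare compounds for conjugation, and 9 of 26 fell with 0 that rose (median -0.32). Nqo1, the quinone reductase most used as a readout of Nrf2, was low in liver, at 1.10, 0.28, 1.63, 1.86 and 1.59 TPM in FL_KO and 3.35, 4.18 and 5.67 TPM as lowest, median and highest in FL_WT. It was 3.68-fold lower without overlap (log2 fold change -1.88 ± 0.27, adjusted p = 9.99e-05 in edgeR), with FL02 the lowest mouse. Aldehyde oxidase Aox1 was at 8.63, 7.74, 11.5, 15 and 11 TPM in FL_KO against 33.3 to 48.4 in FL_WT (-1.97 ± 0.16). Its neighbour Aox3 was 2.13-fold lower with FL11, at 130 TPM, inside the FL_WT range of 123 to 207. Microsomal epoxide hydrolase Ephx1 was at 218, 140, 180, 193 and 172 TPM against 401 to 514 (-1.46 ± 0.12, adjusted p = 1.29e-08). The aldehyde reductase Akr7a5 moved less, 1.38-fold, also without overlap. Ugdh, which makes the UDP-glucuronic acid that glucuronosyltransferases use, was at 32.4, 30.6, 47.7, 54.8 and 45.6 TPM against 73.5 to 96.5 (-1.09 ± 0.13). FL01 and FL02 were the lowest of the FL_KO mice for Ugdh, and for Aox1 and Aox3 as well.

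Carboxylesterases cleave esters of drugs and lipids. Of 14 tested, 7 fell and 0 rose, with a median of -0.62. Ces1b (chromosome 8, 93056728 to 93080017) was at 3.45, 3.31, 3.74, 4.03 and 2.56 TPM in FL_KO and at 48.5, 56.0 and 65.5 TPM as lowest, median and highest in FL_WT. All FL_KO mice were thus near a low floor, and the log2 fold change was -4.16 ± 0.21, with the smallest adjusted p of the contrast (1.49e-11 in edgeR). Ces1g was at 7.41, 9.11, 3.53, 3.35 and 2.40 TPM against 72.2 to 112 (-4.12 ± 0.32). Ces2c (-2.64 ± 0.42) and Ces1f (-1.40 ± 0.22) also fell without overlap, and Ces1c (-0.39) and Ces1e (-0.80) with overlap. For Ces1g, Ces1f and Ces1e the values in FL01 and FL02 were above those of the other 3 FL_KO mice. The most abundant member that was not called, Ces3a, gave 0.12 (adjusted p = 0.465), although its TPM was higher in all 5 FL_KO mice (1642 to 1908) than in any FL_WT mouse (1378 to 1576). In limma on log2(TPM + 1) Ces3a was called higher (0.21), with 6 of the 12 carboxylesterases tested there called lower. Glutathione peroxidase Gpx1 was also apart in TPM without a call, at 4251 to 4505 against 3425 to 4026 TPM (0.16, adjusted p = 0.420 in edgeR). Limma did not call Gpx1 higher. Ces1 genes lie side by side and are alike, so reads may have been split between them.

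Of 25 glucuronosyltransferases and sulfotransferases, 11 fell and 0 rose (median -0.33). Ugt2b5 (chromosome 5, 87124960 to 87140318) was at 307, 255, 299, 310 and 288 TPM in FL_KO and 800, 836 and 891 TPM as lowest, median and highest in FL_WT. Both groups were tight, and the log2 fold change was -1.63 ± 0.09 (adjusted p = 3.53e-11 in edgeR). Ugt2b35 (-1.87) and Ugt2b36 (-1.19) on the same chromosome fell as well. Ugt1a6a, Ugt1a6b and Ugt1a9 share their last exons on chromosome 1, so their values of -1.23, -1.17 and -1.08 may count the same reads.

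Export showed single genes rather than a family. Of 10 export transporters, 2 fell and 0 rose (median -0.03). Abcc3, which returns glucuronides and bile acids to blood, was at 38.9, 43.0, 30.2, 27.9 and 22.0 TPM in FL_KO against 104 to 134 in FL_WT (-2.01 ± 0.19, adjusted p = 1.68e-07 in edgeR). Abcg2 was 1.69-fold lower without overlap, and Abcc2, the canalicular partner of Abcc3, was not called (-0.17, adjusted p = 0.609).

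Cytochrome P450 genes of the Cyp1, Cyp2 and Cyp3 families did not move as a family: 3 of 38 fell, 2 rose and the median was -0.11. Cyp2a5, which hydroxylates coumarin and nicotine, was at 280, 180, 102, 87.5 and 52.1 TPM in FL_KO against 385, 587 and 735 TPM as lowest, median and highest in FL_WT (-2.13 ± 0.37, adjusted p = 0.000972). The values of FL_KO mice were far apart but remained under all FL_WT mice. Cyp2c29 (-0.61) and Cyp2f2 (-0.45) also fell, the latter not called without FL09 (-0.40). Cyp3a11, the main drug-oxidising enzyme of mouse liver, rose from 1408 to 1983 TPM in FL_WT to 2107 to 3318 TPM in FL_KO (0.53 ± 0.13, adjusted p = 0.0234), and the call was lost without FL01, FL05, FL10 or FL12 (0.47 to 0.48). Cyp2c68 was 1.46-fold higher with overlap, a call lost without any of 8 mice (FL03, FL06, FL07, FL08, FL09, FL10, FL11 and FL12, 0.48 to 0.55). None of 11 Cyp4 genes, fatty acid hydroxylases, was called in edgeR or in DESeq2, while limma called 1 higher (Cyp4a32, named after its values were seen). In edgeR 3 of the 11 had an unadjusted p under 0.05, against 2323 of all 13433 genes tested.

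Glutathione synthesis and the thioredoxin system changed little. Of 22 genes, 2 fell and 0 rose, with a median of -0.13. Gpx4, which reduces lipid peroxides, was 1.42-fold lower and Txnrd1, thioredoxin reductase, 1.20-fold lower, both with overlap. Gclc, the catalytic subunit of the first enzyme of glutathione synthesis, was at 121, 111, 147, 184 and 158 TPM in FL_KO and 115 to 295 in FL_WT and was not called (-0.48 ± 0.19, adjusted p = 0.178). Gclc was called with the mouse number (-0.50) or the clock gene level (-0.68) as a covariate, fits that were added after the values were seen.

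Of 10 NADPH producing enzymes 2 fell and 0 rose (median -0.14). Malic enzyme Me1 (chromosome 9, 86581371 to 86695953) was at 44.0, 28.3, 41.9, 40.4 and 43.5 TPM in FL_KO against 64.2, 79.3 and 87.3 TPM as lowest, median and highest in FL_WT (-1.08 ± 0.13, adjusted p = 1.06e-05 in edgeR). Transketolase Tkt was 1.62-fold lower without overlap. Pir, an iron-binding nuclear protein known as a readout of Nrf2 and named here after its values were seen, was at 4.19, 3.22, 4.67, 4.88 and 3.57 TPM against 9.47 to 12.6 (-1.48 ± 0.17, adjusted p = 3.11e-06).

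The sequence that Nrf2 and small Maf proteins are known to prefer has the core TGACNNNGC, which was searched on both strands from 250 bases before to 50 after each RefSeq start (GRCm38.p6). At least 1 match was present in 20.9% of the 235 fallen genes with a promoter entry, 18.9% of 127 risen genes, 16.8% of 9929 genes tested and 14% of all 27025 genes of the promoter table. The windows of Me1 (chr9:86695865-86696164, minus strand, 1 match), Ugdh (chr5:65435793-65436092, minus strand, 2 matches) and Pir (chrX:164269181-164269480, plus strand, 2 matches) are shown because these genes fell without overlap and hold the core in this window, and capitals mark the matches.
Me1: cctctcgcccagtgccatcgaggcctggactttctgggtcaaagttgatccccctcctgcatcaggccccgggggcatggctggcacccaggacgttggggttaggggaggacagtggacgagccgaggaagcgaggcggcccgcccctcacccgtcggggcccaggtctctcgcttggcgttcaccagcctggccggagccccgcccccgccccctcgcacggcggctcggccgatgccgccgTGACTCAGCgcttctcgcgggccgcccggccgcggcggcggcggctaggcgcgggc
Ugdh: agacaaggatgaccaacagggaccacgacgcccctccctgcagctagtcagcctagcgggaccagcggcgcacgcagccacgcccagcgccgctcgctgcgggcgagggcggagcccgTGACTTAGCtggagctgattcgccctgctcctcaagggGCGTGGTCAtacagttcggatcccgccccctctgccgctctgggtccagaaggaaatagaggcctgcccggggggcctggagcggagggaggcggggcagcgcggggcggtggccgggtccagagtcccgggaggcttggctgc
Pir: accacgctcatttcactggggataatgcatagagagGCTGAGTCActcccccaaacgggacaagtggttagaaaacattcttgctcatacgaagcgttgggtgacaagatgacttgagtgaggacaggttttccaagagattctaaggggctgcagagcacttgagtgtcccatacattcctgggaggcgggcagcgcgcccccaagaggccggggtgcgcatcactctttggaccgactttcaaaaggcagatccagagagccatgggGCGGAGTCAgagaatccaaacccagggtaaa
In Me1 the match spans the start itself, and the window of another Me1 start held none. The windows of Hfe and Gsta3 held 1 match each, and so did that of Nfe2l2. The windows of Nqo1, Gstm1, Ces1g, Ephx1 and Aox1, which moved as much or more, held none of these letters.

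Iron and haem genes moved in both directions, with 3 of 16 lower and 1 higher (median -0.21). Ferritin light chain Ftl1 was at 2900, 2744, 2568, 2817 and 2381 TPM in FL_KO against 3707 to 4322 in FL_WT (-0.71 ± 0.11, adjusted p = 0.000189 in edgeR), and the heavy chain Fth1 was 1.29-fold lower with overlap. The processed copy Ftl1-ps1 on chromosome 13, not among the 16, was 6.03-fold lower and shares sequence with Ftl1. Hmox2, the constitutive haem oxygenase, was higher, at 45 to 54.6 against 33.8 to 42.3 TPM (0.36 ± 0.09). The Hmox2 call was lost without a filter on low counts, and also without FL01 and FL11 together. The call for Slc48a1, a haem carrier (-0.26), was lost without any 1 of 7 mice (FL03, FL05, FL08, FL09, FL10, FL11 and FL12, -0.27 to -0.22). Hfe, the hereditary haemochromatosis gene, was not among the 16 either. It was at 13.6, 16.3, 18.9, 17 and 21 TPM in FL_KO against 31.0, 34.7 and 38.9 TPM as lowest, median and highest in FL_WT (-1.12 ± 0.08, adjusted p = 3.00e-09).

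Of the 26 detoxication and antioxidative genes that the study itself displayed across tissues, 25 were tested, 14 fell and 0 rose in flight, and 12 fell on the ground, with medians of -0.48 and -0.51. The study introduced that list as known Nrf2 targets and displayed it in these samples, so its direction here is a description.

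**Figure D3:**
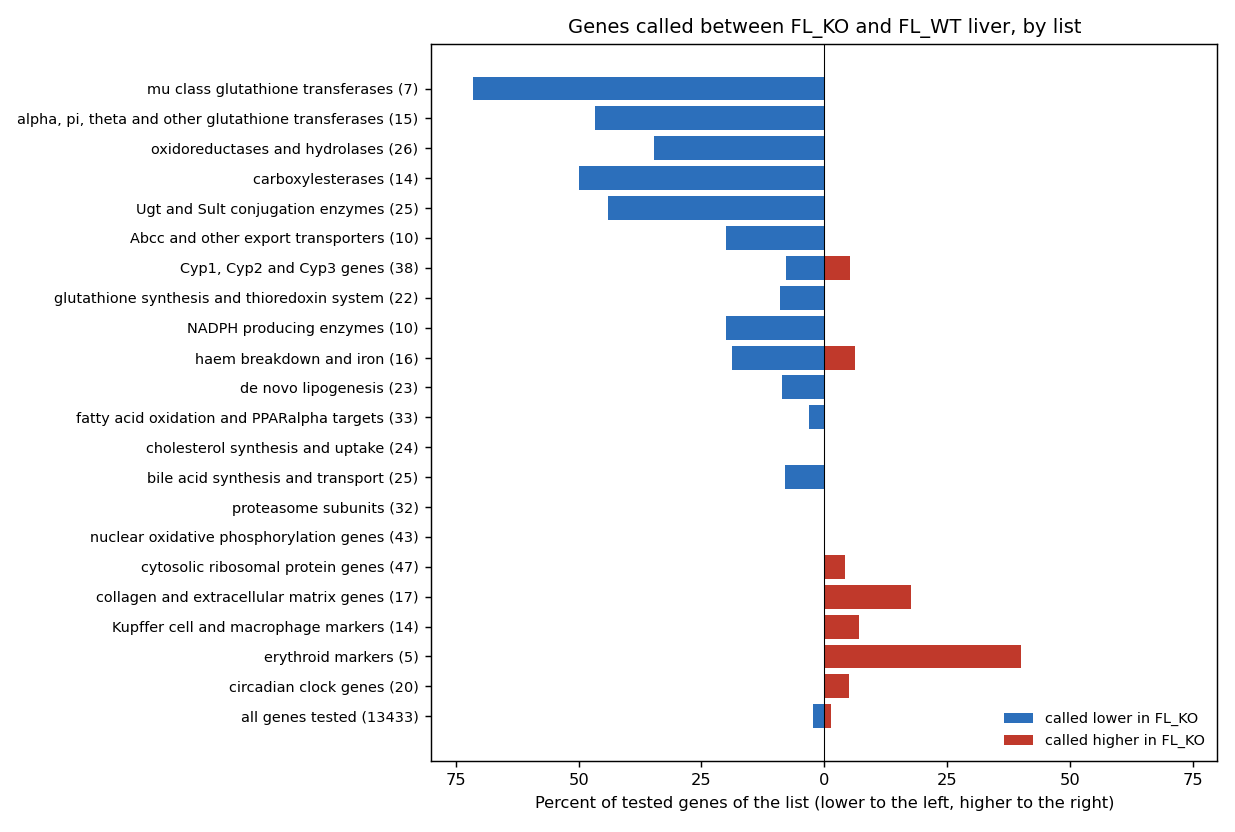
Bars give, for each gene list (number of genes tested in brackets), the percent of genes called lower (left, blue) and higher (right, red) in FL_KO than in FL_WT, with all genes tested at the bottom. Mu class glutathione transferases stand at 5 of 7 lower and carboxylesterases at 7 of 14, while proteasome, cholesterol and oxidative phosphorylation lists have no called gene.

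Lipid and sugar metabolism held few called genes. In the list for fatty acid oxidation and PPARalpha targets 1 of 33 fell, the fatty acid transporter Cd36, at 25, 18.8, 11.8, 16.3 and 11.5 TPM in FL_KO against 33.5 to 49.1 in FL_WT (-1.42 ± 0.23, adjusted p = 0.00035 in edgeR). In de novo lipogenesis 2 of 23 fell, Me1 and the desaturase Scd1 (-1.07 ± 0.24), for which FL12 at 433 TPM lay inside the FL_WT range of 340 to 629. Without FL01 and FL11 Scd1 was not called. Apob, the backbone of very low density lipoprotein (-0.35), and Apoa4, a lipid-transport protein (-0.84, not called without FL05 or FL11, -0.75 to -0.68), were the 2 called of 22 apolipoprotein and plasma protein genes. The liver glycogen phosphorylase Pygl (-0.46) was the only one called of 18 gluconeogenesis and glycogen genes. In bile acid synthesis and transport, Abcc3 and Cyp27a1 were called of 25, and Cyp27a1 (-0.32, adjusted p = 0.0473) lost its call in 16 alternatives, 9 of them single mice left out (all but FL02 and FL08, -0.34 to -0.26).

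None of 24 cholesterol synthesis and uptake genes was called in flight by edgeR, DESeq2 or limma, 0 had an unadjusted p under 0.05 in edgeR and the median was 0.02, while 5 of 24 were called higher on the ground, where it was 0.99. Those called on the ground in edgeR included Hmgcs1 (1.79), Pmvk (1.25), Dhcr7 (1.26) and Hsd17b7 (0.77). In flight they gave 0.11, 0.41, 0.35 and -0.09. On the ground the high values of Hmgcs1, Pmvk and Dhcr7 were those of GC09, GC11 and GC12, which also stood apart in clock genes. Hmgcs1 was at 117, 317 and 133 TPM in these 3 and at 43.8, 25.5 and 26.3 in GC01, GC02 and GC04, inside the GC_WT range of 16.9 to 55.2. The part of the clock difference in these ground values was not tested. The difference between the 2 genotype effects had an unadjusted p under 0.05 in edgeR for 12 of the 24 genes, against 542 of all 13433. Its median over the 24 was -0.86, and no adjusted p passed.

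Lists of zonal and sex-biased liver genes overlapped the families above. Slc1a2, a glutamate transporter of pericentral hepatocytes, was at 32.5, 28.6, 21.1, 22.9 and 18.8 TPM in FL_KO against 53.7 to 68.0 in FL_WT (-1.44 ± 0.22, adjusted p = 0.000164 in edgeR). Pigr, the receptor that carries immunoglobulin A across epithelia, was 1.97-fold lower without overlap. Of 25 pericentral genes 5 fell and of 24 periportal genes 3 fell, 0 rising in either list, with medians of -0.11 and -0.05. Besides Slc1a2 the pericentral ones were Ces1c, Cyp2a5, Cyp2c29 and Cyp27a1, and besides Pigr the periportal ones were Cyp2f2 and Apoa4, so most of these are counted a second time. Major urinary proteins Mup19, Mup17 and Mup20 were 8.46-fold, 8.05-fold and 1.94-fold lower, although related Mup genes may share reads. Mup17 was not called without FL09 or FL12 (-2.88 to -2.82). Among 26 male-biased genes 3 fell and 0 rose (Gstp1, Mup20 and Ugt2b1, median -0.01), and among 15 female-biased genes 1 fell (median 0.42). Serpina12, encoding vaspin, was 4.65-fold lower, and in the ground livers its difference was not called (-0.97, adjusted p = 0.294). GC08, at 0.52 TPM, lay below every other GC_WT mouse for Serpina12. The difference between its flight and ground effects was not called (unadjusted p = 0.0607 in edgeR). Without FL01 and FL11 the flight call of Serpina12 was lost. Mapk15, an atypical MAP kinase, was 7.18-fold, Adora1, an adenosine receptor, 4.86-fold, and Cd59b, a complement inhibitor, 5.06-fold lower, each without overlap. Asparagine synthetase Asns was low, at 0.47, 0, 0.27, 0.37 and 0.33 TPM against 0.87 to 3.03, and lost its call without FL02, FL05, FL09, FL10, FL11 or FL12 (-2.70 to -2.30). The steroid hydroxylase Cyp17a1, at 0.64 to 2.88 against 2.43 to 6.83 TPM, lost its call without FL01, FL02, FL05, FL06, FL09, FL10 or FL11 (-2.0 to -1.84).

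Of the genes that rose, Vcpkmt (chromosome 12, 69577628 to 69583028) was at 7.56, 10.8, 7.47, 9.63 and 7.96 TPM in FL_KO against 0.55, 1.21 and 1.65 TPM as lowest, median and highest in FL_WT (2.77 ± 0.22, adjusted p = 7.15e-09 in edgeR). Hsd3b2, a hydroxysteroid dehydrogenase, was at 53, 64.4, 164, 199 and 147 TPM against 21.1 to 41.8, with FL01 and FL02 nearest to FL_WT. Tomm40l, a mitochondrial import pore homologue, was at 8.93, 7.23, 13.1, 9.19 and 13.4 TPM against 2.73 to 4.02. All 3 separated the genotypes completely. Fam213b, a redox-related prostamide synthase, was 3.62-fold higher, and Cela1, an elastase, 2.28-fold. Adam11 (2.19-fold), the phospholipid flippase Atp11a (1.98-fold), the co-chaperone Dnaja4 (1.87-fold), Kctd17 (1.82-fold), the NADPH sensor Nmral1 (1.79-fold) and Wdfy1 (1.77-fold) followed, also without overlap. Atp11a was not called without FL03, FL05, FL10 or FL11 (0.82 to 0.96). With FL01 and FL11 left out together, Cela1, Atp11a, Kctd17 and Nmral1 were not called. Predicted genes and symbols with several identifiers were passed over in this ranking, 6 among risen genes, Nnt included, and 4 among fallen genes.

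The genes with the smallest p-values included poorly annotated ones on which the genotypes differed almost as present and absent. Gm3608 was at 10.1 to 12.8 TPM in FL_KO and 0 to 0.64 in FL_WT, and 1500015A07Rik at 9.33 to 17 and 0.66 to 1.20. Gm27177 was at 1.60 to 2.89 TPM in FL_KO, and its FL_WT median was 0. In the other direction, F830016B08Rik was at 0.73 to 1.86 TPM in FL_KO and 14 to 26.3 in FL_WT, and Gm17167 at 0 to 0.03 and 0.84 to 1.48. Each of these 5 was called on the ground in the same direction. Nnt, the mitochondrial nicotinamide nucleotide transhydrogenase whose loss distinguishes the C57BL/6J substrain from other C57BL/6 mice, was examined after its values were seen and appears under a pair of overlapping identifiers on chromosome 13. The model from 119335448 to 119408997 was at 37.7, 22.6, 28.4, 31.7 and 35.3 TPM in FL_KO against 2.25 to 6.47 in FL_WT (2.73 ± 0.45, adjusted p = 0.000474 in edgeR). The other, from 119335528 to 119408952, was at 59.8, 66.6, 55.5, 44.7 and 45.1 TPM against 22.3 to 28.2 (0.97 ± 0.13). Both models rose on the ground too, by 4.18 and 0.83 on the log2 scale. A difference in genetic background and an effect of the allele cannot be told apart where all Nrf2-KO mice come from 1 line. That limit holds for every gene of the genotype contrast, including Vcpkmt and the 5 poorly annotated genes above.

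By position, 16 windows of 2 Mb held at least 4 called genes, where 3.65% of all genes tested were called. Several held mainly the gene families above. On chromosome 8 from 92 to 94 Mb, 6 of 10 tested genes were called (Ces1 genes and Gm45909). On chromosome 5 from 86 to 88 Mb it was 6 of 18 (Ugt2b genes and Gm18635). On chromosome 9 from 78 to 80 Mb it was 5 of 15 (Gsta1, Gsta2, Gsta4, Gm3776 and the unrelated Slc17a5). Other windows mixed unrelated genes, as on chromosome 7 from 44 to 46 Mb, where 10 of 68 were called, 4 higher and 6 lower. On chromosome 14 from 68 to 70 Mb, 4 of 11 genes were called, all of them higher and all of them also called on the ground. Around Nfe2l2 itself, 0 of 47 other tested genes within 5 Mb and 1 of 87 within 10 Mb (Fastkd1) were called in edgeR. Of the 47, 10 had an unadjusted p under 0.05 in edgeR, against 2323 of all 13433 genes tested. DESeq2 called 2 of the 47 and limma 1 (Slc25a12, Dcaf17 and Mettl8, named after their values were seen).

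The same genotype comparison in ground livers used no animal of the flight comparison. There 229 genes fell (1.7%) and 126 rose (0.938%) in GC_KO against GC_WT. Of the genes lower in flight, 164 were lower on the ground, 53.4% of the flight list and 71.6% of the ground list. Of the genes higher in flight, 51 were higher on the ground, 27.9% of the flight list and 40.5% of the ground list. No gene was called in opposite directions. Of the 490 genes called in flight, 473 had the same sign on the ground (96.5%, against 67.5% of all tested genes), and 275 were called in flight without being called on the ground. The median of the fallen genes was -0.71 in flight and -0.48 on the ground, and that of the risen genes 0.76 and 0.34. The genes were picked by their call in flight, so these medians do not compare the conditions on equal terms.

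**Figure D4:**
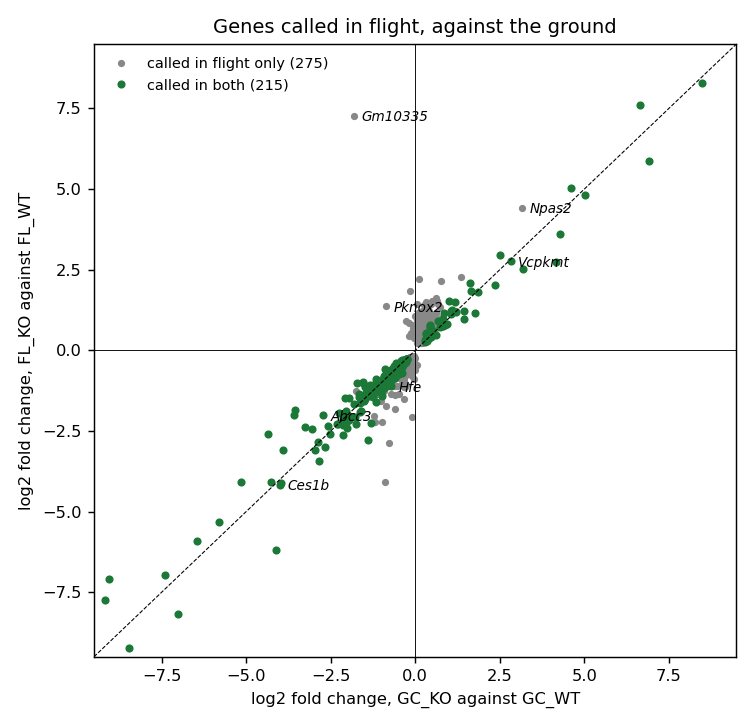
Each point is 1 of the 490 genes called between FL_KO and FL_WT, with its log2 fold change on the ground (GC_KO against GC_WT, n = 6 and 6) on the horizontal axis and in flight on the vertical axis; the dashed line marks equality and green points (215) were called in both. Most points (473) have the same sign on both axes, with Ces1b at the lower left and Vcpkmt at the upper right, and the medians are closer to 0 on the ground (-0.48 and 0.34) than in flight (-0.71 and 0.76). Gm10335 and Pknox2 lie far from the line, and Npas2 (4.42 in flight, 3.17 on the ground) lies nearer to it.

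The direct test of the difference between the flight and the ground effect of genotype called 0 of 13433 genes (0%) in edgeR, with a smallest adjusted p of 0.409 and 542 genes at an unadjusted p under 0.05. With the mouse number as a replicate block it also called 0, limma called 0, and DESeq2 called 1, B3galt1 (interaction -1.38, adjusted p = 0.00579), which in edgeR was -0.53 in flight and 0.85 on the ground. Among genes called in flight, those with the smallest unadjusted interaction p included Gstm6 (-0.83 in flight, -0.32 on the ground, unadjusted p = 0.000877), Hfe (-1.12 and -0.71), As3mt, the arsenite methyltransferase (-1.02 and -1.73), and Nmrk1, a nicotinamide riboside kinase (-0.61 and 0.00). Nmrk1 was at 24.8 to 30.6 TPM in FL_KO and 36.4 to 43.6 in FL_WT, and at 24.1 to 41.1 in GC_KO and 27.7 to 36.1 in GC_WT. The flight groups were apart and the ground groups overlapped. Of the other 6 genes, Wfdc1 (0.80 and -0.03), Fgfr2 (0.53 and -0.12), Tnfaip8 (0.92 and -0.27), Ston1 (0.45 and -0.18) and Pknox2 (1.37 and -0.86) were called higher in flight and not called on the ground. Of these, Wfdc1 kept its call without each mouse in turn. It was not called with only flight livers in the fit, nor without FL01 and FL11 together. Fgfr2 lost its call without any of 5 mice (FL05, FL06, FL07, FL11 and FL12, 0.45 to 0.54), and Pknox2 without any of 5 (FL01, FL02, FL05, FL06 and FL10, 1.07 to 1.29). Tnfaip8 lost it without any of 6 (FL01, FL05, FL06, FL08, FL11 and FL12, 0.81 to 0.92) and Ston1 without any of 7 (FL03, FL05, FL06, FL07, FL09, FL11 and FL12, 0.39 to 0.46). Gm10335 rested on FL09 at 55.9 TPM and FL01 at 7.52 TPM, with the other 3 FL_KO mice at 0, 0.73 and 0, and its call was lost without FL03, FL05, FL06, FL07, FL08, FL09 or FL10 (4.77 to 8.49). For Abcc3 the change was -2.01 in flight and -2.72 on the ground, at an unadjusted interaction p of 0.00911 that did not pass adjustment.

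Few matrix, blood and immune genes passed the test, and the calls in these lists given below were lost when single mice were left out. Of 17 collagen and extracellular matrix genes 3 rose, and all 17 had a log2 fold change above 0 (median 0.49, against 0.05 on the ground). Col6a1 (0.77 ± 0.20) was at 4.48, 2.29, 3.22, 2.96 and 3.98 TPM in FL_KO and 1.15 to 2.98 in FL_WT. Sparc (0.49) and Col4a2 (0.51) were also called, with overlap. The Col6a1 call was lost without any of 6 mice (FL01, FL03, FL05, FL06, FL10 and FL12, 0.62 to 0.75), the Sparc call without any of 8 (all but FL02, FL07 and FL10, 0.44 to 0.52) and the Col4a2 call without any of 8 (all but FL01, FL02 and FL03, 0.36 to 0.56). Without FL01 and FL11, 1 of 17 was called and the median was 0.49. Summed stellate cell and fibroblast markers were 52.7 to 79.2 TPM in FL_KO and 39.4 to 71.2 in FL_WT, with 0 of 12 called in edgeR, 0 of the 5 that limma tested, 3 at an unadjusted p under 0.05 in edgeR and 1 called higher by DESeq2 (Col3a1), and their part in the matrix values was not tested.

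Of 14 Kupffer cell and macrophage markers, 1 rose, Lyz2, encoding lysozyme, at 29.4, 29.0, 33.4, 56.0 and 26.4 TPM in FL_KO against 11.7 to 21.9 in FL_WT (0.97 ± 0.26). Its call was lost without FL03, FL05, FL06, FL08, FL09 or FL11 (0.74 to 1.01). The summed level of the list was 134.8 to 237 TPM in FL_KO and 86.5 to 175.6 in FL_WT. Of 5 erythroid genes 2 rose, Hba-a2 (1.0) and Hbb-bs (0.95), globins of red cells. Both calls were lost without FL01, FL02, FL03, FL05, FL06, FL10 or FL11 and that of Hbb-bs also without FL08 (0.83 to 1.03 and 0.76 to 1.01). With FL01 and FL11 left out together none was called, and the median of the list went from 0.95 to 0.52. Alas2, the erythroid haem synthesis enzyme, gave -0.33 (adjusted p = 0.169). The immunoglobulin gene Ighm was at 66.4, 3.03, 3.42, 39.5 and 7.43 TPM in FL_KO and 3.21 to 4.73 in FL_WT and was not called (2.56, adjusted p = 0.061 in edgeR). No gene of the 7 lymphocyte and neutrophil markers was called in edgeR, where 4 had an unadjusted p under 0.05 (2323 of 13433 over all genes). DESeq2 called 3 higher (Cd4, Cd79a and Ighm) and limma 0 of the 1 it tested. Without FL01 and FL11 the median of the 7 lymphocyte and neutrophil markers went from 1.57 to 0.12. Of 27 interferon stimulated genes 2 rose, Usp18 (0.85), a deconjugase of Isg15, not called without FL11 (0.77), and Oas1a (0.94), not called without FL02, FL05, FL06, FL07, FL09, FL10 or FL12 (0.76 to 0.97). The pancreas genes Cela3b, Cpa1 and Prss2 were at 0 in every flight liver. Ctrb1 and Pnlip, also of the pancreas, were at 0 in every FL_WT liver but not in every FL_KO liver. Of 7 tested markers of pancreas, fat, gut and muscle, 3 rose and 1 fell. Beside Cela1 these were the gut gene Vil1 (2.95), at 0.10 to 0.52 TPM in FL_KO and at most 0.10 in FL_WT, and the fatty acid binding proteins Fabp4 (0.86) and Fabp2 (-0.43), each of which lost its call without any of 8 mice (0.56 to 0.92 without FL01, FL03, FL05, FL06, FL08, FL10, FL11 or FL12, and -0.46 to -0.33 without FL03, FL05, FL06, FL07, FL08, FL09, FL11 or FL12). Sinusoidal endothelial and cholangiocyte markers held no called gene in edgeR, in DESeq2 or among the 10 and 2 genes that limma tested (0 of 12, median 0.20, and 0 of 7, median 0.12, in edgeR), and 1 gene of each list had an unadjusted p under 0.05 in edgeR.

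Lists of general stress and housekeeping genes held few called genes. In edgeR no gene was called among 32 proteasome subunits (median 0.11), 43 nuclear oxidative phosphorylation genes (-0.01), 27 unfolded protein and heat shock genes (0.02), 25 acute phase genes (0.13), 21 cell cycle genes (0.04), 16 immediate early genes (0.35) or 13 glucocorticoid response genes (0.41). At an unadjusted p under 0.05 stood 8 proteasome, 4 cell cycle, 5 immediate early, 3 glucocorticoid response and 2 acute phase genes, and 0 of the other 2 lists. Over all genes tested the count was 2323 of 13433. DESeq2 called Myc lower and Cdkn1a higher among these lists, and limma Cdkn1a and Psmb3 higher. Of 47 ribosomal protein genes 2 rose (Rpl3 and Rps29, 1.34-fold and 1.43-fold), and of 18 p53 targets 1 fell (Mdm2, 1.21-fold). The call was lost for Rpl3 without FL02, FL05, FL08, FL09, FL10 or FL12 (0.37 to 0.42), for Rps29 without FL01, FL02, FL03, FL05, FL08 or FL10 (0.40 to 0.50) and for Mdm2 without FL05 or FL12 (-0.25).

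Levels of clock genes varied with the mouse number in the labels, in Nrf2-KO and wild-type mice. Arntl, an activator of the clock, was at 5.67 and 9.39 TPM in FL01 and FL02 and at 22.8, 23.4 and 25.2 TPM in FL09, FL11 and FL12. In FL_WT it went from 5.40 TPM in FL03 to 17.6 in FL10, and the groups overlapped (0.52 ± 0.42). Its antagonist Nr1d1 was at 18.2, 12.8, 2.49, 2.50 and 2.34 TPM in FL_KO and at 3.98 to 19.9 in FL_WT, and Dbp, a clock output, at 24.3, 14.1, 3.22, 2.45 and 2.86 TPM. Npas2 was the only one of 20 clock genes called (4.42 ± 1.19, adjusted p = 0.0372 in edgeR), at 0.02, 0.02, 2.74, 5.41 and 4.95 TPM in FL_KO and 0 to 0.40 in FL_WT, so its call rested on the 3 Nrf2-KO mice with the highest numbers. That call was lost without any of 8 mice (FL03, FL05, FL06, FL07, FL08, FL09, FL11 and FL12, 3.95 to 4.47). What the numbers stand for is not given in the sources used here. FL_KO mice hold numbers 1, 2, 9, 11 and 12 and FL_WT mice 3, 5, 6, 7, 8 and 10, so the lowest and the highest numbers are FL_KO. The clock level was 2.32, 3.0 and 3.07 in FL09, FL11 and FL12 and at most 0.55 in FL_WT. A fit with the clock level as a covariate thus has no FL_WT mouse at the levels of these FL_KO mice. With the clock level as a covariate, 340 genes rose and 619 fell, and 460 of the 490 genes called without it were among those called. With the mouse number as a numeric covariate the counts were 388 and 628, with all 490 retained. Both fits were added after the values were seen.

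**Figure D5:**
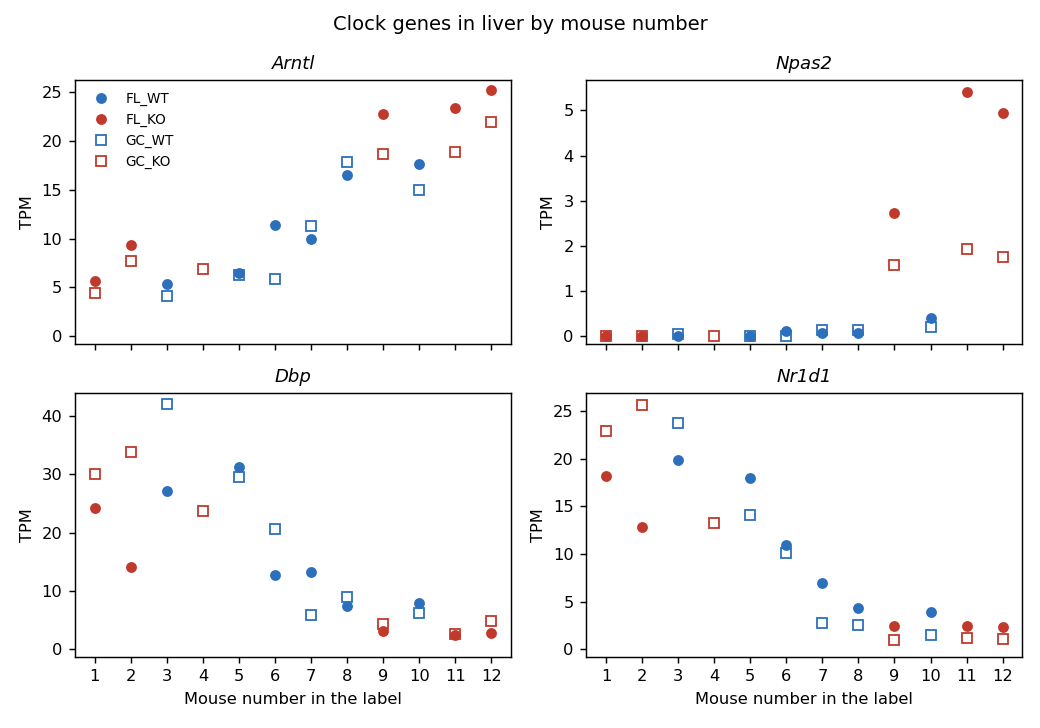
TPM of 4 clock genes (vertical axis, linear) against the mouse number in the label (horizontal axis) for FL_WT, FL_KO, GC_WT and GC_KO livers, 1 marker per mouse. Arntl and Npas2 are highest in mice 9, 11 and 12 and Dbp and Nr1d1 in the lowest numbers, in flight and ground mice alike.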

How the data were processed

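Poly(A) RNA of each liver was made into strand-specific libraries and sequenced as single reads on a HiSeq2500. The authors mapped reads to mm10 with STAR 2.6.1 and quantified genes with RSEM 1.3.1. The expected counts deposited by the authors are RSEM estimates per gene, not normalized, in which reads fitting several genes are divided among them. The TPM values deposited by the authors are RSEM's per-length values, used here for levels. The FPKM values and 528 columns of other samples or units were not used. The strand setting of the quantification is not given in the sources used here, so overlapping genes on opposite strands may share reads. Positions came from GENCODE vM21 (GRCm38).

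Expected counts were rounded and analysed in R 4.3.3 with edgeR 4.0.16 (filterByExpr by group, TMM, quasi-likelihood test), with the 4 liver groups in 1 fit of 23 livers and Benjamini-Hochberg adjustment over 13433 genes. Contrasts were FL_KO against FL_WT, GC_KO against GC_WT, and their difference. Log2 fold changes are given ± SE. The model was tested on simulated data. Replicates were separate mice. Gene lists and their members were chosen with earlier results of these data known, so lists are given by counts and medians without a test. Named genes were, per list, up to 6 called genes with the smallest adjusted p, any gene called against the list's majority and up to 2 abundant genes not called; the 12 largest changes each way without overlap and at 5 TPM or more; the 5 smallest adjusted p each way; and the 10 smallest interaction p among genes called in flight. Some genes that meet these rules are not reported here. FL_KO and FL_WT share no mouse numbers. Across flight and ground, same-numbered mice deviated together in 5 of 5 Nrf2-KO pairs (r = 0.22 to 0.37) and 4 of 6 wild-type pairs above 0.1 (0.02 to 0.34). Alternatives were RLE factors, DESeq2 1.42.0, no filter, log2(TPM + 1) tested in limma 3.58.1 where a group's mean was at least 5 TPM, FL04 included, only the groups of a contrast, each flight mouse left out in turn, and the mouse number as a block. Covariates for the clock level (mean log2 CPM of Arntl, Clock and Npas2 minus that of Dbp, Nr1d1 and Per1) and the mouse number, and leaving out FL01 with FL11, were added after the values were seen.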

Additional observations from a re-analysis of the deposited data

Results flagged for a closer look

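In groups of 5 or 6 mice, the gap between the most extreme mouse and its nearest neighbour was compared with the whole range of the group, for the TPM of each named gene. Among 258 groups of values examined, 17 held such a mouse. The limit on this ratio is passed by about 1 in 20 groups of normally distributed values without ties. Groups at 0 TPM in all mice but 1 pass it whatever the value, as for Gm10335 in FL_WT and Gsta1 in FL_KO. The 17 are therefore not compared with chance. Of these, 3 were FL06, and no other mouse appeared more than 2 times. In FL_KO, Abcg2 was lowest in FL12 (23.6 TPM), Me1 lowest in FL02 (28.3), Hmgcs1 highest in FL12 (83.2), Lyz2 highest in FL11 (56.0), Mup17 highest in FL11 (465), Gm10335 highest in FL09 (55.9) and Gsta1 highest in FL01 (0.16). In FL_WT, Ces3a was lowest in FL05 (1378 TPM) and Mup17 highest in FL03 (2817). Among genes near the limit of counting in FL_WT, Gm27177 stood apart in FL06 (0.16), Gm10335 in FL08 (0.15), Npas2 in FL10 (0.40) and Vil1 in FL05 (0.10), and at higher levels so did Wdfy1 in FL06 (8.76), Gm5970 in FL06 (4.6), Gstm5 in FL07 (7.25) and Oas1a in FL08 (1.12). No cause was tested for any of these values. The differences between FL_KO and FL_WT for Abcg2, Me1, Wdfy1, Gm27177, Gm5970 and Vil1 remained called when each mouse was left out in turn, while those for Lyz2, Mup17, Gm10335, Npas2, Oas1a and Gsta1 were not, as given with each gene above.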

How the results depend on the processing

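With 183 genes higher and 307 lower in FL_KO as reported, the count of higher genes was 105 without a filter, 92 with only the groups of the contrast, 340 with the clock level and 388 with the mouse number as covariate, 95 without FL01 and FL11, and 100 to 217 with each mouse left out in turn, lowest without FL05. The count of lower genes was 154 with limma, 619 and 628 with those covariates, and 220 to 358 with each mouse left out. On the ground, DESeq2 called 194 genes higher, the covariates 294 and 330 higher and 476 and 498 lower. Genes called lower in both conditions numbered 303 and 308 with the covariates, and genes called higher in both 102 and 126. The cause of these changes was not tested. Limma's filter on TPM kept fewer genes (8349). Of the genes called in edgeR, 242 lower and 96 higher ones had a mean of at least 5 TPM in a flight group. Limma called 154 lower and 186 higher. The interaction count was 1 with DESeq2 and 0 with the mouse number as a replicate block, where 761 genes had an unadjusted p under 0.05. The best match of a flight mouse was the ground mouse of its own number in 2 of 5 Nrf2-KO and 2 of 6 wild-type mice. DESeq2 called 487 and all leave-one-out fits together 268 of the 490 genes. Among the genes named here, signs turned only for those not called: Hmgcs1 (-0.31 without FL12 to 0.24 without FL02, -0.46 with the clock level, -0.01 with the mouse number), Dhcr7 (-0.08), Arntl (-0.19) and Nr1d1 (0.31) with the clock level, which contains both, Gstm7 (-0.03 without FL12 to 0.14 without FL01 or FL02, -0.05 with the clock level), and Per1 (-0.15 with limma, -0.22 without FL01, -0.31 without FL02 to 0.71 without FL03, -0.21 with the mouse number). With 5 and 6 mice, 46 of 108 called named genes lost their call under at least 1 alternative, and genes near 0 TPM are limited by depth.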
